A study of Mus musculus with 9 samples.

Results

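The 10 genes described are markers of tubular injury and repair in the kidney: Havcr1, Lcn2, Krt20, Spp1, Clu, Sox9, Timp1, Krt8, Krt18 and Cd44. They were listed by name and not by a measured value, though earlier results of these data were known. All 10 were among the 54532 gene identifiers counted, and all 10 passed the filter on low counts that left 16646 genes for testing. PolyA RNA of whole kidney was sequenced in 9 mouse libraries, 3 per group, on a C57BL/6J background. The WT group held wild-type mice, which the study purchased, with no injection stated and, in the study's methods, no age at sampling. The other groups held Trex1-/- mice, offspring of Trex1+/- matings that lack the DNA exonuclease TREX1 in every cell, about a month old when daily intraperitoneal injections began and sampled after 2 weeks. The first received PBS (with Tween 80 as the vehicle, by the study's methods) and the second SN-011, which blocks STING, the signalling protein downstream of the cytosolic DNA sensor cGAS. Both Trex1-/- groups therefore share the deletion and the injections, and no wild-type group was given SN-011. The labels state neither the sex of the mice nor which animal gave which library, so p-values measure the spread between these libraries.

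Injured tubular epithelial cells lose transport functions and switch on genes that are low in a resting kidney. Havcr1 and Lcn2, whose products reach the urine, are the textbook transcripts of acute injury, Sox9 marks epithelial cells that re-enter growth, and the keratins, Spp1, Clu, Timp1 and Cd44 accompany dedifferentiation, matrix turnover and repair. Several are also made by other cells, such as Lcn2 by neutrophils, Spp1, Timp1 and Cd44 by macrophages or stroma, and Krt20 by urothelium.

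Libraries held 16118813 to 21928965 counts, and levels are given as CPM, counts scaled to the size of the library after TMM adjustment. The deleted gene could not be used to check the labels, since 100% of the exonic bases of Trex1 are shared with Atrip on the same strand and no library, WT or Trex1-/-, had a read assigned to it (0 counts). With all its exonic bases shared, these counts set no upper limit on Trex1 RNA. Reads of 4 Y-linked genes summed to 153 to 188 CPM in 5 libraries, namely all 3 PBS libraries, WT replicate 3 and SN-011 replicate 2, and Xist stood at 434 to 503 CPM in the other 4. No PBS library carried Xist reads above 0.291 CPM, so PBS held libraries of 1 kind. The group differences of all members are therefore also given with a Y-linked term, which rests on WT replicate 3 and SN-011 replicate 2 as the Y-linked libraries of groups that hold both kinds. Kidney identity was plain in every library, with Umod at 4745 to 6069 CPM and Slc34a1 at 4297 to 5566 CPM.

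No member changed between the groups at an adjusted p under 0.05 (edgeR's quasi-likelihood test with Benjamini-Hochberg adjustment over all 16646 genes). The count was 0 of 10 in Trex1-/- PBS against WT, where 1.88% of all genes were called, 0 of 10 in SN-011 against PBS, where 0.00% were called, and 0 of 10 in Trex1-/- SN-011 against WT, where 1.28% were called. Smallest among the members were the adjusted p of Krt20 (0.101) and Cd44 (0.111), both higher in Trex1-/- SN-011 than in WT. Within WT, replicate 3 stood apart from the other libraries in Havcr1 and Lcn2, and Havcr1 was higher in every library with Y-linked reads than in any with Xist reads.

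**Figure D1:**
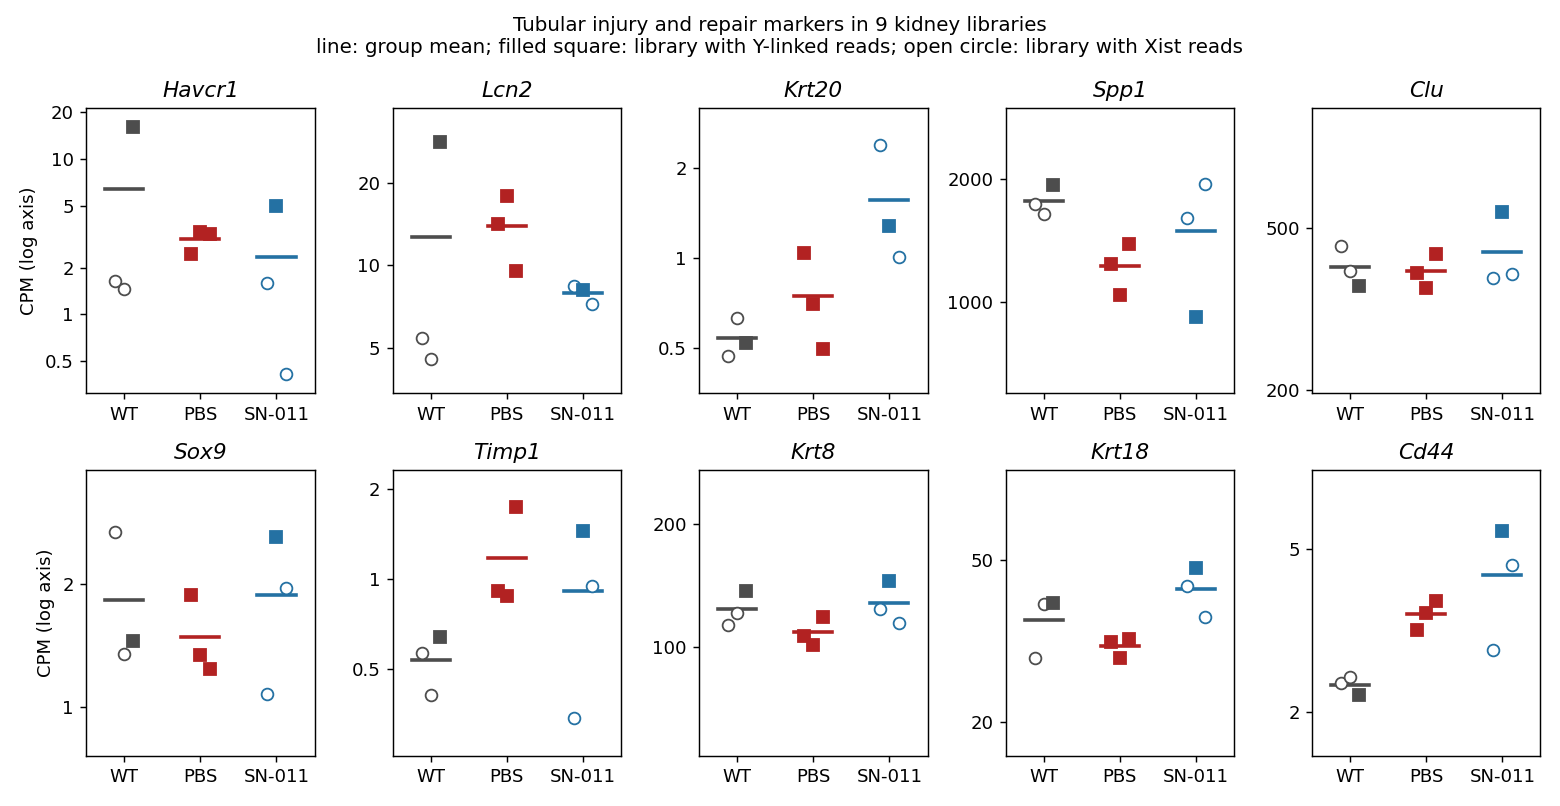
CPM of the 10 members (log axis) in the 9 libraries by group, with a line at each group mean, filled squares for libraries with Y-linked reads and open circles for libraries with Xist reads. WT replicate 3 lies at 16.0 CPM of Havcr1 and 28.2 CPM of Lcn2, above all other libraries, while the 3 groups overlap in Clu, Sox9 and Krt8.

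Havcr1 encodes KIM-1, a phosphatidylserine receptor that injured proximal tubule cells place on their surface. In WT replicates 1, 2 and 3 it measured 1.65, 1.45 and 16.0 CPM, in PBS 2.44, 3.39 and 3.29 CPM, and in SN-011 1.59, 4.98 and 0.415 CPM. WT replicate 3 was the highest library and SN-011 replicate 3 the lowest, and all 3 groups overlapped. The difference between PBS and WT was -1.04 on the log2 scale (SE 0.924, 95% interval -3.10 to 1.01, adjusted p = 0.639), between SN-011 and PBS it was -0.38 (interval -2.54 to 1.77), and between SN-011 and WT it was -1.43 (interval -3.52 to 0.66). The intervals take in large differences in either direction. Counts of Havcr1 ran from 7 to 277 per library.

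The values of Havcr1 rested on a single wild-type library and on the test. WT replicate 3 held 10.4 times the mean of WT replicates 1 and 2, and over all tested genes only 20 of 16646 had a larger excess in that library. Without it the difference between PBS and WT turned to 0.97 (adjusted p = 0.551) and that between SN-011 and WT to 0.59 (adjusted p = 0.741). With limma-voom on all 9 libraries, Havcr1 was at -0.041 in PBS against WT (adjusted p = 0.988), -0.98 in SN-011 against PBS and -1.02 in SN-011 against WT. With the Y-linked term, fitted over all 9 libraries, the difference between PBS and WT was -2.16 (adjusted p = 0.0204). All PBS libraries carried Y-linked reads, so this value leans on WT replicate 3, the only WT library with them. It does not show a lower level in Trex1-/- mice. Among the 5 libraries with Y-linked reads the difference was -2.40. That sets 3 PBS libraries against WT replicate 3 alone, restates the high level of that library and is no test of the groups.

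Lcn2 encodes lipocalin 2 (NGAL), a secreted protein that binds bacterial siderophores and is released by the stressed distal nephron and by neutrophils. Its level was 5.42, 4.56 and 28.2 CPM in WT, 14.2, 17.9 and 9.57 CPM in PBS, and 8.39, 8.11 and 7.24 CPM in SN-011. All 3 SN-011 libraries lay below all 3 PBS libraries, the SN-011 values differing by 1.16-fold from lowest to highest, whereas WT spanned 6.19-fold. The SN-011 against PBS difference was -0.81 (SE 0.587, interval -2.12 to 0.49, adjusted p = 0.632). Between PBS and WT it was 0.14 (interval -1.13 to 1.41, adjusted p = 0.932), and 0.70 with limma-voom (adjusted p = 0.557). Between SN-011 and WT it was -0.67 (adjusted p = 0.602), and -0.071 with limma-voom (adjusted p = 0.963).

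For Lcn2 too the outcome turned on WT replicate 3, at 5.66 times the mean of the other WT libraries, an excess that 44 of 16646 genes surpassed. Leaving that library out, Lcn2 was higher in PBS than in WT by 1.47 (SE 0.254, adjusted p = 0.0157, edgeR), past the threshold, with WT at 4.56 to 5.42 CPM and PBS at 9.57 to 17.9 CPM. In this fit every remaining WT library carried Xist reads and every PBS library Y-linked reads, and the share of each in the difference was not tested. Summed CPM of 8 neutrophil markers ran from 0.813 to 4.69 in WT, 3.33 to 8.65 in PBS and 3.85 to 10.4 in SN-011, with WT replicate 3 the highest of WT at 4.69, and Ly6g was at 0 in every WT and PBS library. How much of Lcn2 came from neutrophils was not tested, and in whole tissue fewer cells of a type and less RNA per cell cannot be told apart.

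**Figure D2:**
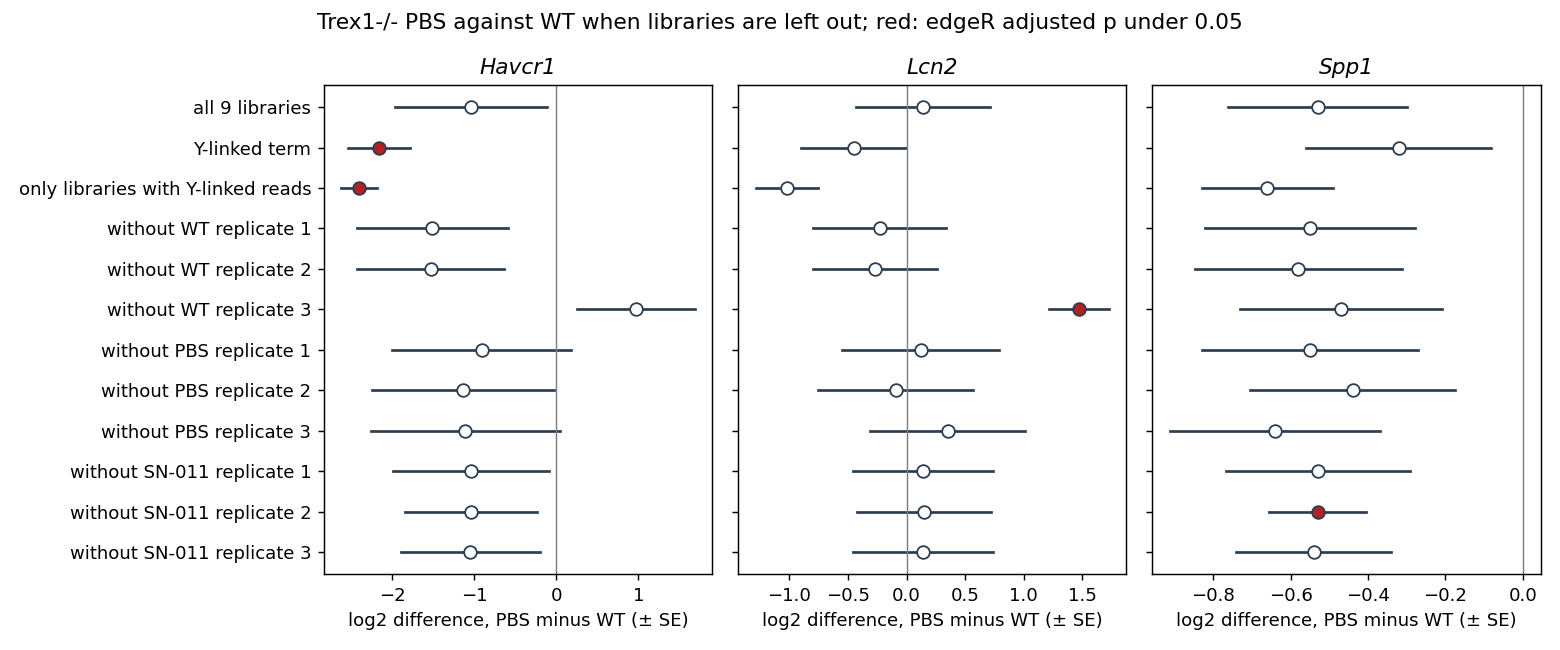
Log2 differences (± SE) of Havcr1, Lcn2 and Spp1 between Trex1-/- PBS and WT in the fit of all libraries, with a Y-linked term, within the libraries with Y-linked reads (WT replicate 3 alone for WT) and with each library left out, red where the adjusted p was under 0.05. Havcr1 moves from -1.04 to 0.97 and Lcn2 from 0.14 to 1.47 once WT replicate 3 is left out, while Spp1 stays between -0.66 and -0.32.

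Krt20, an intermediate filament keratin of umbrella cells that injured tubules also express, was the member with the highest difference between SN-011 and WT. It stood at 0.472, 0.632 and 0.521 CPM in WT, 1.04, 0.701 and 0.497 CPM in PBS, and 2.38, 1.28 and 1.01 CPM in SN-011. SN-011 lay wholly above WT, and PBS overlapped both. The differences were 1.51 for SN-011 against WT (SE 0.411, interval 0.60 to 2.42, adjusted p = 0.101), 1.06 for SN-011 against PBS (adjusted p = 0.377) and 0.45 for PBS against WT (adjusted p = 0.678). Only 8 to 42 reads per library lie behind these values, and edgeR's exact test alone put the first of them past the threshold (adjusted p = 0.0313). The 9 urothelial markers, another source of Krt20, summed to 40.8 to 52.1 CPM in WT, 28.6 to 47.2 CPM in PBS and 30.5 to 51.3 CPM in SN-011, and these ranges overlapped.

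Promoter sequence is shown for 3 members: Krt20 as the one with the most motif matches, Spp1 as the most abundant, and Havcr1 as the member whose level separated libraries by sex-linked transcripts. RefSeq windows on GRCm38.p6, the build the submitters call mm10, were found for 8 members (11 windows), and stretches inside annotated exons were left out. Searched on both strands in the 250 bases before each start were AP-1 (TGANTCA), STAT GAS (TTCNNNGAA), TEAD (GGAATG), ISRE (GAAA, 2 bases of any kind, GAAA) and NF-kB (GGG, 2 bases of any kind, TTTCC), and capitals mark each match. The Krt20 window is chr11:99438154-99438403 (minus strand), that of Spp1 chr5:104434861-104435110 (plus strand), and the second of 3 Havcr1 windows chr11:46750261-46750510 (plus strand).
Krt20: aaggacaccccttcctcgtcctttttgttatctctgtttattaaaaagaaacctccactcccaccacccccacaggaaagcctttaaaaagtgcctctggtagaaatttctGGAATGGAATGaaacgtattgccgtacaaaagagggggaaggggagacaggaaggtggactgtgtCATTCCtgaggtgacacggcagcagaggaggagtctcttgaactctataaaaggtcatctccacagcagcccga
Spp1: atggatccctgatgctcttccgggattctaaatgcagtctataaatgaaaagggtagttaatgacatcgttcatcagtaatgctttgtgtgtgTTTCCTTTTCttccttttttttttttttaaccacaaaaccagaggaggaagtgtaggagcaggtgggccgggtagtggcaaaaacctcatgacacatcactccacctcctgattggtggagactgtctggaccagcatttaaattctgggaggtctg
Havcr1: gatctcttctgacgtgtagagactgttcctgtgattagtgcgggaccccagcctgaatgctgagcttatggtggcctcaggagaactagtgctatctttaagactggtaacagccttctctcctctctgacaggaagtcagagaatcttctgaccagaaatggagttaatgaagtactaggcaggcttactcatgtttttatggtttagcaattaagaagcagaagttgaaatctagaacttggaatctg
Krt20 held 3 TEAD matches, at 139 and 134 bases before the start, where they share 1 base, and on the opposite strand at 74 bases. Among 32851 windows of all genes 12.6% held a TEAD match, so such a match is common. Spp1 had 1 ISRE match, on the opposite strand 157 bases before the start, a motif found in 2.98% of windows. Timp1 held 1 TEAD match 247 bases before its start. The other windows, those of Havcr1, Lcn2, Krt8, Krt18 and Cd44, held none of the 5 motifs, of which AP-1 was in 6.75%, STAT GAS in 7.02% and NF-kB in 1.41% of all windows.

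Spp1 encodes osteopontin, a secreted phosphoprotein of the distal nephron and of activated macrophages that binds integrins and calcium crystals. It was by far the most abundant member, with 1739, 1641 and 1933 CPM in WT, 1240, 1044 and 1391 CPM in PBS, and 1611, 920 and 1949 CPM in SN-011. Every PBS library lay below every WT library, and the lowest of all 9 was SN-011 replicate 2, in which Y-linked reads were found. PBS differed from WT by -0.53 (SE 0.232, interval -1.05 to -0.016, adjusted p = 0.315). That difference stayed at -0.53 but passed the threshold without SN-011 replicate 2 (adjusted p = 0.0422) or with only the 6 PBS and WT libraries in the fit (adjusted p = 0.0472). With the Y-linked term it was -0.32. SN-011 differed from PBS by 0.29 (interval -0.23 to 0.80, adjusted p = 0.679), and 18.8% of the exonic bases of Spp1 are shared with Gm42793 on the same strand.

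Clu encodes clusterin, a secreted chaperone that coats debris in damaged tubules. Levels of 451, 392 and 360 CPM in WT, 387, 355 and 431 CPM in PBS, and 376, 545 and 385 CPM in SN-011 overlapped throughout. Its differences were -0.036 (interval -0.38 to 0.31) for PBS against WT, 0.15 (interval -0.19 to 0.50) for SN-011 against PBS and 0.12 (interval -0.23 to 0.47) for SN-011 against WT. Reads of Clu ran from 6077 to 9570 per library.

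Timp1, which inhibits matrix metalloproteinases, was scarce, with 6 to 28 reads per library. WT libraries held 0.566, 0.406 and 0.636 CPM, PBS libraries 0.913, 0.876 and 1.74 CPM, and SN-011 libraries 0.340, 1.45 and 0.950 CPM. PBS lay above WT in every library, with SN-011 on both sides. The PBS against WT difference was 1.13 (SE 0.506, interval 0.008 to 2.26, adjusted p = 0.326), and it ranged from 0.59 to 1.30 over 19 alternative settings with none past the threshold.

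Cd44, the hyaluronan receptor carried by leukocytes and by regenerating tubules, was 2.36, 2.44 and 2.20 CPM in WT, 3.17, 3.50 and 3.73 CPM in PBS, and 2.83, 5.56 and 4.57 CPM in SN-011. All 6 Trex1-/- libraries lay above all 3 WT libraries. The difference from WT was 0.57 in PBS (SE 0.253, interval 0.007 to 1.13, adjusted p = 0.323) and 0.89 in SN-011 (SE 0.250, interval 0.33 to 1.44, adjusted p = 0.111). Both comparisons use the same WT libraries. The SN-011 difference passed the threshold in DESeq2's Wald test (0.89, adjusted p = 0.0453) and without SN-011 replicate 1 (1.12, adjusted p = 0.0367). SN-011 against PBS gave 0.32 (interval -0.23 to 0.87).

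Leukocyte markers are given beside Cd44, Timp1 and Spp1, which leukocytes or stroma can express. In PBS against WT, Cd44 and Timp1 lay higher in every library and Spp1 lower. The 10 macrophage markers summed to 178 to 214 CPM in WT, 288 to 326 CPM in PBS and 171 to 269 CPM in SN-011. The 9 T and NK cell markers summed to 7.36 to 11.5 CPM, 19.6 to 32.8 CPM and 9.86 to 22.1 CPM. In PBS against WT, C1qa (0.94, adjusted p = 0.0133), C1qb (0.79, adjusted p = 0.0483), C1qc (0.96, adjusted p = 0.0253), Cd3g (1.90, adjusted p = 0.0329), Cd4 (1.61, adjusted p = 0.0329) and Jchain (1.99, adjusted p = 0.0175) rose, against 1.44% of all genes called higher. Jchain also rose in SN-011 against WT (2.24, adjusted p = 0.0185), a call lost without WT replicate 1 (adjusted p = 0.0765) or 2 (0.0763) and with only the 6 libraries of the comparison (0.0946). It was the only called gene of 4 tested B and plasma cell markers, which had a median of 0.20 in PBS against WT and -0.35 in SN-011 against WT. There, Cd79a was at -0.97 (adjusted p = 0.265), Cd79b at -0.53 (adjusted p = 0.610) and Mzb1 at -0.17 (adjusted p = 0.857), and in PBS against WT they were at 0.11, -0.81 and 0.29. Of the 6 calls in PBS against WT, that of Jchain alone was kept with the Y-linked term (1.45, adjusted p = 0.0465), while C1qa was at 0.77, C1qb at 0.54, C1qc at 0.73, Cd3g at 1.64 and Cd4 at 1.41 (adjusted p 0.0677 to 0.177). Leaving out WT replicate 1 or 2 or PBS replicate 1 or 3 ended all 6 (adjusted p 0.0589 to 0.202), while PBS replicate 2 ended all but that of C1qa. The call of C1qb was lost as well with DESeq2 size factors (adjusted p = 0.0518), with a mean filter of 50 counts (0.0542), with the replicate block (0.0576) and without SN-011 replicate 3 (0.0591). SN-011 replicate 1 was the lowest SN-011 library both in Cd44, at 2.83 CPM, and in macrophage markers, at 171 CPM. Fibroblast markers, 7 genes, summed to 360 to 593 CPM in WT, 552 to 643 CPM in PBS and 364 to 498 CPM in SN-011. The part of leukocytes and stroma in the levels of Cd44, Timp1 and Spp1 was not tested.

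Sox9, a transcription factor of renewing tubular epithelium, was low and spread out, at 2.69, 1.35 and 1.45 CPM in WT, 1.89, 1.34 and 1.24 CPM in PBS, and 1.08, 2.61 and 1.96 CPM in SN-011. The groups overlapped in every comparison. Differences of -0.30 for PBS against WT (interval -1.16 to 0.57), 0.33 for SN-011 against PBS (interval -0.54 to 1.21) and 0.034 for SN-011 against WT (interval -0.81 to 0.88) rested on 19 to 57 reads per library.

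Krt8 and Krt18 are the type II and type I keratins that pair into the filament of simple epithelia. Krt8 was 113, 121 and 137 CPM in WT, 106, 101 and 118 CPM in PBS, and 124, 145 and 114 CPM in SN-011. Krt18 was 28.7, 39.0 and 39.2 CPM in WT, 31.4, 28.7 and 31.9 CPM in PBS, and 43.0, 47.8 and 36.1 CPM in SN-011. SN-011 lay above PBS in every library for Krt18, and in 2 of 3 libraries for Krt8 where replicate 3 was at 114 CPM against a highest PBS value of 118 CPM. The SN-011 against PBS difference was 0.46 for Krt18 (SE 0.141, interval 0.15 to 0.78, adjusted p = 0.281) and 0.24 for Krt8 (SE 0.114, interval -0.012 to 0.49, adjusted p = 0.466). Against WT, PBS was at -0.22 for Krt18 (adjusted p = 0.505) and -0.19 for Krt8 (adjusted p = 0.461). Of the exonic bases of Krt8, 5.16% overlap Gm36026 on the other strand, and the strand setting of the counting was not given in the sources used here.

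**Figure D3:**
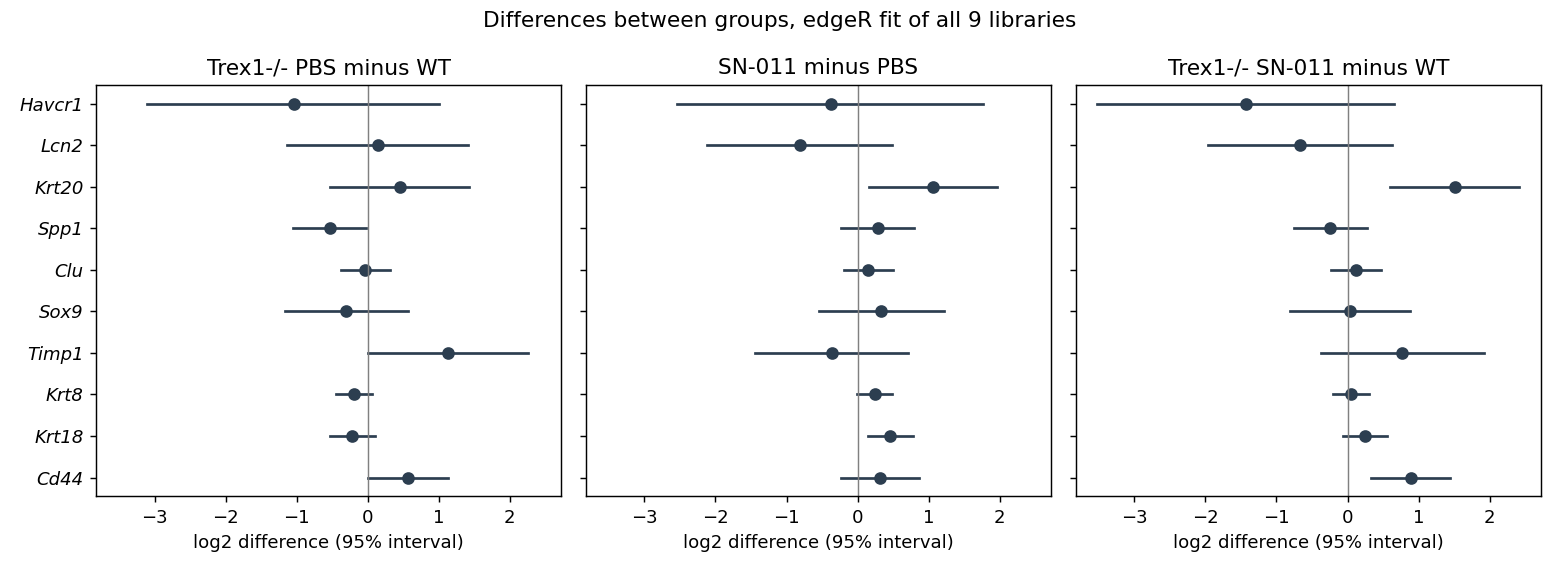
Log2 differences between groups (points) with 95% intervals (lines) for the 10 members in the 3 comparisons, from the edgeR fit of all 9 libraries. Havcr1 has the widest intervals, -3.10 to 1.01 in PBS against WT, and Krt8 among the narrowest, -0.44 to 0.061.

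Across the members, 3 of 10 had an unadjusted p under 0.05 in PBS against WT (Spp1, Timp1 and Cd44), where 15.2% of all genes did, 2 of 10 in SN-011 against PBS (Krt20 and Krt18) against 11.4%, and 2 of 10 in SN-011 against WT (Krt20 and Cd44) against 18.0%. Groups that did not overlap were found for 3 of 10 members in PBS against WT, with Timp1 and Cd44 higher and Spp1 lower, and for 25.4% of all genes (13.1% higher, 12.3% lower). For SN-011 against PBS they were found for 2 of 10, Krt18 higher and Lcn2 lower, and for 16.1% of all genes (7.74% higher, 8.41% lower). For SN-011 against WT it was Krt20 and Cd44, both higher, and 21.7% of all genes (11.8% higher, 9.99% lower). The median difference of the members was -0.11, 0.26 and 0.084 in the 3 comparisons, beside 0.003, -0.005 and -0.003 over all genes. The value lay above 0 for 4 of 10 members in PBS against WT (50.6% of all genes), 7 of 10 in SN-011 against PBS (48.9%) and 7 of 10 in SN-011 against WT (49.5%).

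Sex-linked transcripts separated the libraries for Havcr1. The 5 libraries with Y-linked reads held 2.44 to 16.0 CPM and the 4 with Xist reads 0.415 to 1.65 CPM, with no overlap, as was true of 8.97% of all genes. In the fit with group and Y-linked terms, Havcr1 was higher with Y-linked reads by 2.92 (SE 0.356, interval 2.13 to 3.70, adjusted p = 0.00134), 1 of 10 members called in a comparison where 3.65% of all genes were, 2.51% of all genes in this direction. The ratio of the Y-linked library to the mean of the libraries with Xist reads was 10.4 in WT and 4.98 in SN-011, so the difference was seen inside both groups that hold libraries of either kind. Over 15 alternatives it stood at 2.30 to 3.41, and it passed the threshold wherever the Y-linked libraries of both WT and SN-011 were kept. The lowest value was without WT replicate 3 (2.30). There SN-011 replicate 2 alone carries the contrast within a group, so that value is no test. The same holds for WT replicate 3 once SN-011 replicate 2 is left out.

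None of the other 9 members was called for the Y-linked term. Lcn2 came nearest at 1.45 (SE 0.433, interval 0.49 to 2.40, adjusted p = 0.101), with a ratio of 5.66 in WT but 1.04 in SN-011. Without WT replicate 3 the value of Lcn2 was 0.060, and without SN-011 replicate 2 it was 2.50. Each rests on 1 Y-linked library inside a group and is no test, and the second restates the high level of WT replicate 3. Krt8 stood at 0.25 (interval 0.052 to 0.45, adjusted p = 0.168) and Spp1 at -0.34 (interval -0.83 to 0.15, adjusted p = 0.474). The Y-linked libraries of WT and SN-011 are 1 each, so this term rests on few libraries.

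Group differences with the Y-linked term in the fit passed the threshold for Havcr1 alone, in PBS against WT. Its value there leans on WT replicate 3, the only WT library with Y-linked reads, and does not show a lower level in Trex1-/- mice. In that comparison the other members stood at -0.45 (Lcn2), 0.65 (Krt20), -0.32 (Spp1), -0.15 (Clu), -0.44 (Sox9), 0.59 (Timp1), -0.35 (Krt8), -0.38 (Krt18) and 0.38 (Cd44), with the smallest adjusted p for Krt8 (0.184). When the term was added, Lcn2 turned from 0.14 to -0.45, Timp1 moved from 1.13 to 0.59 and Krt8 from -0.19 to -0.35. For SN-011 against PBS, Krt18 was at 0.62 (adjusted p = 0.215) and Krt8 at 0.40 (adjusted p = 0.266), beside Krt20 (0.86), Cd44 (0.48), Sox9 (0.44), Clu (0.25) and Spp1 (0.022), and Havcr1 (1.04), Lcn2 (0.22) and Timp1 (0.11) had turned from below 0 to above it. For SN-011 against WT, Krt20 stayed at 1.51 (adjusted p = 0.0719) and Cd44 was at 0.86 (adjusted p = 0.0790), and the others ran from -1.12 (Havcr1) to 0.69 (Timp1).

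**Figure D4:**
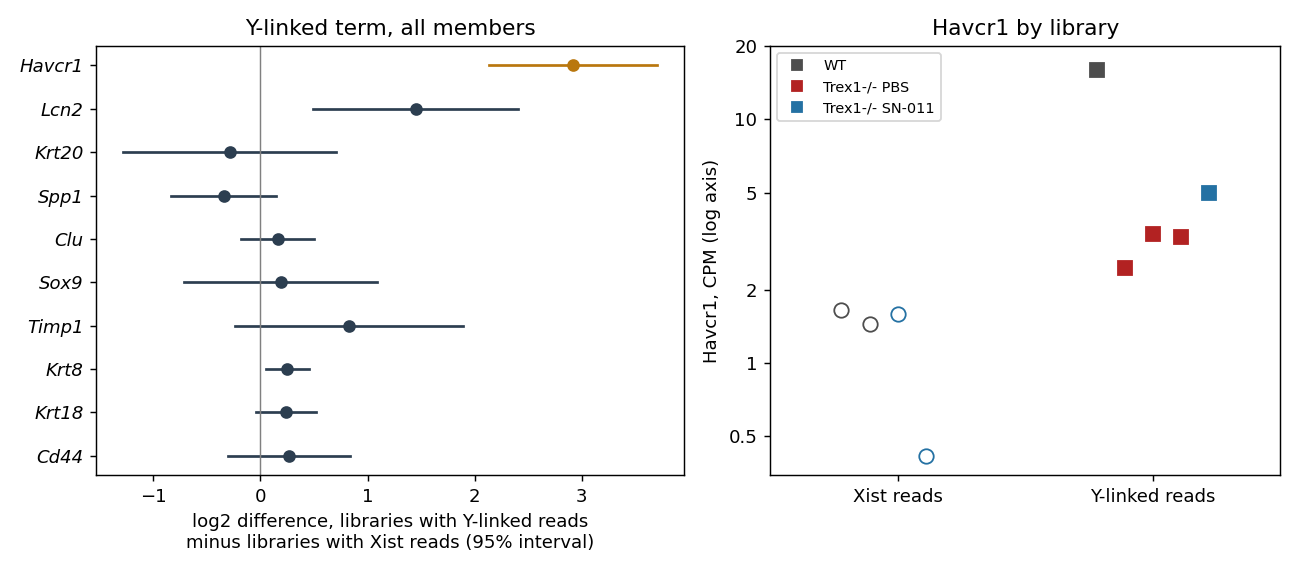
Left, log2 difference between libraries with Y-linked and with Xist reads for each member (points, 95% intervals as lines, the called member in orange); right, CPM of Havcr1 (log axis) in the 9 libraries, squares for Y-linked and circles for Xist, coloured by group. Havcr1 alone is called, at 2.92, and its 5 Y-linked libraries lie above its 4 Xist libraries.

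Among other genes of tubular injury and repair, 59 of a list of 62 were tested, and Cxcl2, Areg and Il1rl1 had too few reads. None of the 59 was called in PBS against WT or in SN-011 against PBS, and 2 rose in SN-011 against WT, where 0.823% of all genes did. These were Itgav, the integrin subunit that activates latent TGF-beta, at 224 ± 14.2 CPM in SN-011 and 156 ± 5.69 CPM in WT (SD, n = 3), a rise of 0.53 (adjusted p = 0.0286), and Myc, a growth-promoting transcription factor, at 12.6 ± 2.48 and 6.67 ± 0.928 CPM, a rise of 0.92 (adjusted p = 0.0408). Itgav kept its call in 14 and Myc in 10 of 21 alternatives. Leaving out any of the 3 WT libraries ended both calls, with adjusted p of 0.0689 to 0.130 for Itgav and 0.0547 to 0.146 for Myc. Without PBS replicate 2 (0.0591) or SN-011 replicate 3 (0.0502) the Itgav call was also lost, and that of Myc was lost without any 1 of the PBS libraries or without SN-011 replicate 1.

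Of the 59, those with the smallest p in PBS against WT were the complement gene C3 (0.58, adjusted p = 0.0614), the monocyte chemokine Ccl2 (2.20, adjusted p = 0.0646), Anxa3 (-0.40, adjusted p = 0.0782) and the keratin Krt7 (-0.38, adjusted p = 0.0813). C3 was 101 ± 13.0 CPM in PBS and 67.5 ± 12.2 CPM in WT, and Ccl2 was 1.89 ± 0.531 and 0.395 ± 0.364 CPM (SD, n = 3). Ccl2 passed the threshold in 6 of 19 alternatives and C3 in 5 of 20. In SN-011 against PBS the smallest p were those of C3 (-0.50, adjusted p = 0.250), Itgav (0.34, adjusted p = 0.250), Cd24a (0.32, adjusted p = 0.281) and Tnfrsf12a, the TWEAK receptor (1.42, adjusted p = 0.305). The median of the 59 was -0.008 in PBS against WT, 0.16 in SN-011 against PBS and 0.080 in SN-011 against WT.

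**Figure D5:**
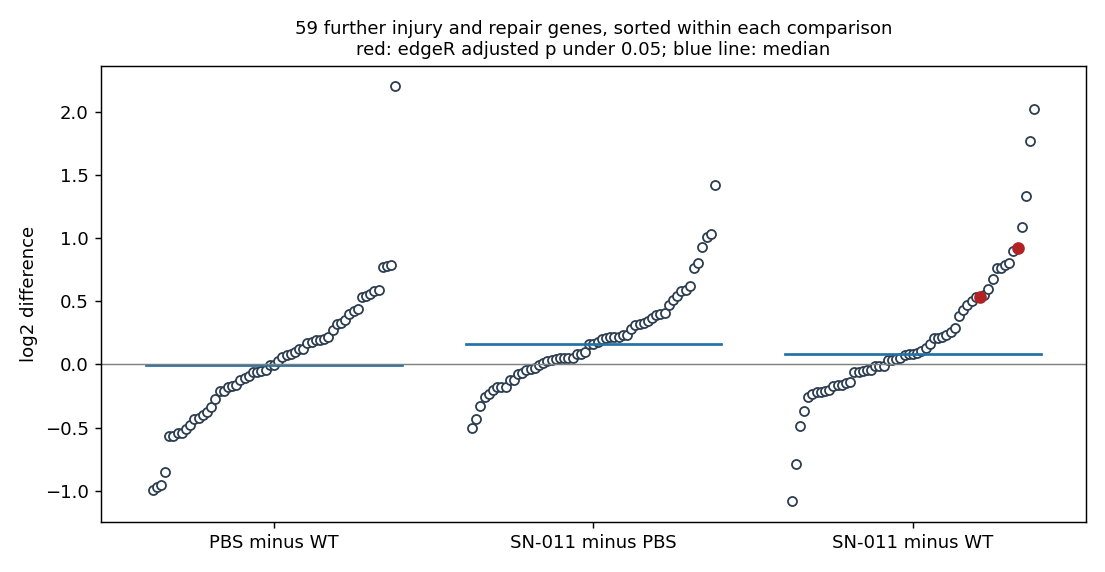
Log2 differences of the 59 further injury and repair genes, sorted within each comparison (points, 1 per gene, red where called; blue line, median). No gene is called in the first 2 comparisons, and Itgav (0.53) and Myc (0.92) are in SN-011 against WT.

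Tubule identity genes, which injury lowers in textbook accounts, were compared as the counterpart of the members. Of 18, 1 fell in PBS against WT, as 0.439% of all genes did, and none passed the threshold in the other comparisons in the edgeR quasi-likelihood fit. In PBS against WT the 18 had a median of -0.20 on the log2 scale, against 0.003 over all genes, with 5 above 0 (50.6% of all genes). Of them, 6 were lower in every PBS than in every WT library (12.3% of all genes), and 1 was higher (13.1%). In SN-011 against WT the median was -0.047, against -0.003 over all genes. PBS held only libraries with Y-linked reads, and the part of this in the PBS values was not tested. Slc5a2, the sodium-glucose cotransporter SGLT2 of the early proximal tubule, fell by 0.71 on the log2 scale (adjusted p = 0.0163), from 392 ± 29.7 CPM in WT to 239 ± 14.8 CPM in PBS (SD, n = 3), and stood at 250, 250 and 330 CPM in SN-011. Its adjusted p missed the threshold once a Y-linked term was added (-0.58, adjusted p = 0.0701) and when WT replicate 1 or 2 or any 1 PBS library was left out (adjusted p 0.0576 to 0.0862). In SN-011 against WT Slc5a2 was at -0.50 (adjusted p = 0.0867) and passed the threshold in 4 of 21 alternatives, namely DESeq2 (0.00581), no filter (0.0260), the Y-linked term (0.0314) and without SN-011 replicate 3 (0.0320). The summed level of the 18 genes was 24984 to 26712 CPM in WT, 23223 to 24247 CPM in PBS and 23636 to 25146 CPM in SN-011.

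Compared per length, in CPM per kilobase of exon averaged over the 9 libraries, the members covered a wide range. Spp1 led with 908, followed by Clu (119), Krt8 (61.2), Krt18 (25.2), Lcn2 (4.39), Havcr1 (1.69), Timp1 (0.986), Cd44 (0.498), Krt20 (0.491) and Sox9 (0.419). The order was the same with the longest transcript as the length. Havcr1 and Timp1 have no order beyond their spread, with group means of 2.76, 1.31 and 1.01 for Havcr1 (SD 3.62, 0.227 and 1.03) and of 0.604, 1.32 and 1.03 for Timp1 (SD 0.133, 0.550 and 0.625) in WT, PBS and SN-011, n = 3 each. Cd44 (0.344 to 0.638), Krt20 (0.281 to 0.807) and Sox9 (0.361 to 0.455) overlapped in their group means and have no order beyond their spread. The group means of Timp1 overlapped those of Cd44 and Krt20 as well, so its place above them is no order beyond the spread either.

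Over the 9 libraries, Pearson's r of log2 CPM between members was highest for the keratin partners Krt8 and Krt18 (0.86), followed by Timp1 and Cd44 (0.74), Havcr1 and Lcn2 (0.72) and Clu and Sox9 (0.67), and lowest for Spp1 and Cd44 (-0.58). These 9 points share groups, libraries and depth, so the coefficients only describe the samples, and that of Havcr1 and Lcn2 includes WT replicate 3, the highest in both. The genes most like Havcr1 were 2500002B13Rik (0.971), Hyi (0.952) and Lbhd1 (0.940). Those most like Krt8 were Manf (0.930), Creld2 (0.910) and Sars (0.907), and Creld2 also stood first for Krt18 (0.937). Timp1 was most like Sycp3 (0.970), Brd7 (0.961) and H2-Aa (0.956). All of these genes were picked for the highest r among 16646 tested genes, and a search of that size yields high values with 9 libraries.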

How the data were processed

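PolyA RNA of mouse kidney was sequenced as strand-specific read pairs in 9 libraries. The authors trimmed reads with Trimmomatic, aligned them with hisat2 and deposited raw counts of uniquely mapped pairs per Ensembl gene from featureCounts, on mm10 per the submitters' processing notes, with versions and strand setting not given in the sources used here. Of 54532 identifiers, 54495 matched GENCODE vM21.

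The deposited counts entered edgeR 4.0.16 (R 4.3.3) unchanged. Genes passed filterByExpr (minimum count 10, total 15), libraries were scaled by TMM, and 1 quasi-likelihood fit of all 9 libraries, 3 per group, gave each comparison, with Benjamini-Hochberg adjustment over 16646 genes and a threshold of 0.05. CPM precision follows from the 16118813 to 21928965 counts per library. As a Y-linked term, libraries with over 10 CPM of Y-linked reads were set against the others.

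The members and gene lists were chosen with earlier results of these data known. All members are named, as are called genes of the wider injury, identity and cell type lists (at most 8 per comparison), or else the 4 with the smallest p. Alternatives included DESeq2 1.42.0, limma-voom (limma 3.58.1), edgeR's exact test, other scalings and filters (30892 or 12756 genes), fewer libraries and a replicate block. Those of the Y-linked difference and of genes named outside the members were chosen after seeing the data. The fits were tested on simulated data.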

Additional observations from a re-analysis of the deposited data

Results flagged for a closer look

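Lcn2 was singled out by a test of whether SN-011 against WT differs between libraries with Y-linked and with Xist reads. For SN-011 against WT, the difference of the log2 differences was -2.45 (adjusted p = 0.0468, edgeR interaction term, called for 83 of 16646 genes). In the Y-linked libraries Lcn2 was 8.11 CPM in SN-011 replicate 2 and 28.2 CPM in WT replicate 3. In the Xist libraries it was 8.39 and 7.24 CPM in SN-011 and 5.42 and 4.56 CPM in WT. The Y-linked side holds 1 library per group, so the value restates the high Lcn2 of WT replicate 3 and does not show a differing response. No other member passed the threshold of that test, with Spp1 (-1.15, adjusted p = 0.0944) and Clu (0.75, adjusted p = 0.168) next.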

How the results depend on the processing

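Low counts (6 to 57 reads per library for Krt20, Sox9 and Timp1) and 3 libraries per group limit precision, and a difference that missed the threshold is not shown to be absent. No change of scaling (DESeq2 or upper-quartile factors) turned a direction or a call of a member, and neither did a mean filter of at least 50 counts for the 7 members that pass it, Krt20, Sox9 and Timp1 not being tested there. In PBS against WT 0 members were called, and 1 was with the 6 libraries of the comparison (Spp1), with the Y-linked term and in the libraries with Y-linked reads (Havcr1, 1 each), with a range of 0 to 1 when 1 library was left out. The call of Havcr1 with the Y-linked term leans on WT replicate 3, the only WT library with Y-linked reads. In SN-011 against WT the 0 became 1 with DESeq2 (Cd44) and 1 with edgeR's exact test (Krt20), 3 lower in the libraries with Y-linked reads (Havcr1, Lcn2 and Spp1) and 0 to 1 with 1 library left out. In SN-011 against PBS no alternative called a member. For the Y-linked term the 1 call became 3 without a filter (Havcr1, Lcn2 and Spp1). Without WT replicate 3 or SN-011 replicate 2, 1 library carries that term within a group, and the count of calls is no test. With any other library left out it stayed at 1. Of all genes tested, 3.65% were called for that term, 5.01% without a filter and 2.10% to 3.45% with any of those other libraries left out. In the libraries with Y-linked reads WT is replicate 3 alone and SN-011 replicate 2 alone, each assumed to vary like the 3 PBS libraries, so no count or value from these libraries, for members or other genes and in any of the 3 comparisons, is a test of the conditions. The causes were not tested.

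For the 59 further injury genes, the 0 calls in PBS against WT became 5 without a filter, 6 with DESeq2, 4 with the exact test, 1 with limma-voom, 3 with 6 libraries and 1 in the Y-linked libraries, and 0 to 5 with 1 library left out. The 0 calls in SN-011 against PBS became 1 without a filter, 1 with DESeq2 and 4 in the Y-linked libraries, and 0 to 2 with 1 left out. The 2 calls in SN-011 against WT became 5 without a filter, 5 with DESeq2, 4 with the exact test, 0 with 6 libraries, 6 with the Y-linked term and 5 in the Y-linked libraries, and 0 to 4 with 1 left out.

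Over all genes, the 313 calls in PBS against WT became 707 without a filter, 726 with DESeq2, 683 with the exact test, 751 with 6 libraries and 198 with the Y-linked term, and 153 to 774 with 1 left out. SN-011 against PBS had 0 calls in the edgeR quasi-likelihood fit, with 1905 genes at an unadjusted p under 0.05, and became 127 without a filter, 183 with DESeq2, 127 with the exact test and 107 in the Y-linked libraries, and 0 to 519 with 1 left out, 519 being without SN-011 replicate 2. The 213 calls in SN-011 against WT became 607, 816, 601 and 43 in the same order (no filter, DESeq2, exact test, 6 libraries), 656 with the Y-linked term, 356 in the Y-linked and 461 in the Xist libraries, and 38 to 376 with 1 left out.

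Directions that turned belonged to differences that had not passed the threshold. In PBS against WT, Lcn2 was -0.45 with the Y-linked term and -1.02 in the Y-linked libraries, where Clu was 0.12 and Sox9 0.042, and with 1 library left out Havcr1 ran from -1.53 to 0.97, Lcn2 from -0.27 to 1.47, Clu from -0.12 to 0.051 and Sox9 from -0.51 to 0.086. In SN-011 against PBS, Havcr1 was 1.04 and 0.74, Timp1 0.11 and 0.33 (Y-linked term, then Y-linked libraries), Lcn2 0.22 with the term and Spp1 -0.39 in the Y-linked libraries, and with 1 left out Havcr1 ran from -1.59 to 0.12, Clu from -0.044 to 0.25, Timp1 from -0.87 to 0.032, Ccl2 from -0.35 to 0.063 and Jchain from -0.18 to 0.54, while C1qb was 0.012 in the Y-linked libraries. In SN-011 against WT, the Xist libraries gave 0.65 for Lcn2, 0.074 for Spp1, -0.15 for Clu and -0.41 for Sox9, the Y-linked libraries gave -0.11 for C3, and with 1 left out Havcr1 ran from -2.63 to 0.59, Lcn2 from -1.08 to 0.66, Spp1 from -0.48 to 0.002, Clu from -0.081 to 0.21, Sox9 from -0.28 to 0.42, Krt8 from -0.055 to 0.12 and C3 from -0.050 to 0.21.

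With the replicate number as a block, 312, 0 and 231 genes and 0 members were called in the 3 comparisons, and of the 59 genes 0, 0 and 1, Myc being lost in SN-011 against WT (adjusted p = 0.0597, edgeR). In PBS against WT, C1qb (0.0576) and Cd4 (0.0609) were lost, and the block changed no other call of the genes rerun. The deviations of same-numbered libraries from their group means correlated across genes at -0.008 to 0.133 between WT and PBS, -0.294 to 0.238 between WT and SN-011 and 0.098 to 0.242 between PBS and SN-011. In no comparison were all 3 pairs over 0.1, so the numbers were not taken to pair the libraries. Between PBS and SN-011 all 6 libraries correlated best with their own number, a hint from the data and not from the design, against 4 of 6 between WT and PBS and 1 of 6 between WT and SN-011.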
